A study of Mus musculus with 11 samples.

Results

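Acute phase proteins are plasma proteins that the liver makes in larger amounts during infection or injury. The 10 acute phase genes described here in fetal liver were taken by name from the gene annotation, with earlier results of these data known. They are Saa1, Saa2 and Saa3 (serum amyloid A), Orm1 and Orm2 (orosomucoid), Hp (haptoglobin), Lrg1 (leucine-rich alpha-2-glycoprotein), Crp (C-reactive protein), Fgl1 (fibrinogen-like protein) and Hamp (hepcidin). These 10 genes were found once each among the 52636 genes counted in every liver. Of the 10, 7 passed the filter on low counts that left 17243 genes for testing (Saa3, Orm1, Hp, Lrg1, Crp, Fgl1 and Hamp), and Saa1, Saa2 and Orm2 did not.

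RNA was sequenced from whole livers of untreated mouse embryos on a C57BL/6N background at E15.5, with 3 WT livers, 2 Tnfr1-/- livers, 3 Casp8-/- Mlkl-/- livers and 3 Casp8-/- Tnfr1-/- livers. Caspase-8 starts apoptosis and restrains necroptosis, MLKL carries out necroptosis, and TNFR1, which the Tnfrsf1a gene encodes, is the main receptor for TNF. The alleles are germline deletions, so no Cre line or transgene limits them to a cell type, and Casp8-/- Tnfr1-/- embryos do not survive to birth. The sequencing was done to ask whether genes induced by interferon are raised in Casp8-/- Tnfr1-/- fetal liver, and the 3 other genotypes served for comparison, of which Casp8-/- Mlkl-/- also lacks caspase-8 and Tnfr1-/- also lacks TNFR1. Each sample is labelled as its own liver, and nothing in the labels gives litters.

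In the acute phase response, IL-6 family cytokines act through STAT3 and IL-1 or TNF act through NF-kB and C/EBP factors to raise transcription of these genes in hepatocytes. SAA proteins bind lipoproteins, orosomucoids carry small molecules, haptoglobin binds free hemoglobin, C-reactive protein and its relative Apcs bind microbial surfaces and dead cells, and hepcidin triggers degradation of the iron exporter ferroportin. Hepcidin also responds to iron through BMP and SMAD proteins. These genes are not all restricted to hepatocytes, since, for example, macrophages make Saa3 and neutrophils and endothelium make Lrg1. At this stage the liver is also the main blood-forming organ, so hepatocytes share the tissue with erythroid and myeloid cells. In bulk RNA of this kind, more cells of a type and more RNA per cell cannot be told apart.

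Gene counts summed to at least 23129212 and at most 35819339 reads in a liver. Casp8 and Mlkl followed the labels: in counts scaled to library size (CPM), Casp8 was lowest with Mlkl deleted too, at 7.82 to 10.2, reached 11.5 to 21.9 with Tnfr1 deleted, and lay at 27.7 to 33.8 in the 5 livers with intact Casp8, and Mlkl at 0.729 to 1.22 in Casp8-/- Mlkl-/- livers against at least 3.68 elsewhere. Tnfrsf1a did not follow them, at 49.8 and 50.5 CPM in Tnfr1-/- livers and 76.9, 75.9 and 425 CPM in Casp8-/- Tnfr1-/- livers against 47.1 to 53.4 in WT, so a count over the whole gene does not check that allele. A pair of livers stood apart, and the main results are therefore given with all 11 livers and with the 9 others. Casp8-/- Tnfr1-/- replicate 3 had a summed level of 12 striated muscle genes of 1987 CPM, where no other liver passed 43.1. It alone carried Xist, at 3407 CPM against at most 0.569 CPM in the 10 others. Hemoglobin genes took 13.0% of its reads and 3.70 to 6.17% in the 10 others. Sex was not a term in any fit. Casp8-/- Mlkl-/- replicate 1 had a summed level of 15 hepatocyte genes of 244443 CPM, where the 7 other livers outside Casp8-/- Tnfr1-/- held between 56647 and 85621 CPM.

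The members lie in small gene clusters, and their near copies limit what a short read can tell. The serum amyloid A genes sit together on chromosome 7 of GRCm38, with Saa3 at chr7:46711998-46715700, Saa1 at chr7:46740497-46742980 and Saa2 at chr7:46751790-46754313. Of the 50-base stretches of Saa1 transcripts, 31.5% also occur in other genes, chiefly Saa2, and of Saa3 4.15% do. Orm1 at chr4:63344560-63348163 and Orm2 at chr4:63362449-63365878 are neighbours, and 20.4% of the stretches of Orm1 are shared, chiefly with Orm2. Hamp at chr7:30942368-30944032 shares 16.6% with its copy Hamp2 and lies wholly inside a lincRNA on the opposite strand, Gm44662, so that without strand-specific counting, which the sources used here do not state, reads of both cannot be told apart. Hp at chr8:109575128-109579172 and Lrg1 at chr17:56119678-56122001 share none. Fgl1 at chr8:41191434-41215156 shares 0.357%, and Crp at chr1:172698055-172833031 shares 0.56% and contains the pseudogene Gm38051.

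Of the 10 genes, 7 had an entry in the RefSeq promoter table of build GRCm38.p6. The 250 bases before the transcript start are shown for the 3 serum amyloid A genes and for both hepcidin genes, because in each family 1 gene was read in every liver while the others shown were almost silent. Capitals mark matches on either strand to a C/EBP motif (TTGCNNAA), a STAT motif (TTCNNNGAA), the BMP response element (GGCGCC) or the NF-kB motif, which were picked after other results of these data were known. Saa3 is from chr7:46715677-46715926, Saa1 from chr7:46742981-46743230 and Hamp from chr7:30944030-30944279 and Hamp2 from chr7:30924182-30924431, all on the minus strand, and Saa2 is from chr7:46751583-46751832 on the plus strand.
Saa3: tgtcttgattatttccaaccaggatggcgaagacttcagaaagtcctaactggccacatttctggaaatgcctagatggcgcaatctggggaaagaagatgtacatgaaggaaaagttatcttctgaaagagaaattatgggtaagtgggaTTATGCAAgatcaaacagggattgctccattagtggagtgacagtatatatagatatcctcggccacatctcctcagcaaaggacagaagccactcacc
Saa1: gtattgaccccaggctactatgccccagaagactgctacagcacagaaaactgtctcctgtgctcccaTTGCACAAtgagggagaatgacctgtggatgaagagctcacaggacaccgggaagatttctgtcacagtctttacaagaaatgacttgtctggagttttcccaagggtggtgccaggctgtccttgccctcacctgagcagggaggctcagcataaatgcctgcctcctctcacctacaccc
Saa2: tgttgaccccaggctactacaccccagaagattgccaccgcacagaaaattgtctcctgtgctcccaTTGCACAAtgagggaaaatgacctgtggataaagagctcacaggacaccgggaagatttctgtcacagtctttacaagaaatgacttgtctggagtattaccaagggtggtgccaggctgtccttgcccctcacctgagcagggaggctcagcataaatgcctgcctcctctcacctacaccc
Hamp: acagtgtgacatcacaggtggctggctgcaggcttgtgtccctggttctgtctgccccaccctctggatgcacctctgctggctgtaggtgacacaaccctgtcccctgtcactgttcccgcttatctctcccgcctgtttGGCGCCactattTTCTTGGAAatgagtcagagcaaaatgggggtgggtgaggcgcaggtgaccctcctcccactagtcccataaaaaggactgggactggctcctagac
Hamp2: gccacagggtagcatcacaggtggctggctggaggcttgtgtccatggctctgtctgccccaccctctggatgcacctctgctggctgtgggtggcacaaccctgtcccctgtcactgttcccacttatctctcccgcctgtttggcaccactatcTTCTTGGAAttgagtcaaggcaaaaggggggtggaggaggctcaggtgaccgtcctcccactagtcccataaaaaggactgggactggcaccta

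Each of the 3 serum amyloid A promoters held a single match to the C/EBP motif, starting 99 bases before the start in Saa3 on the minus strand, 182 bases in Saa1 and 183 bases in Saa2. The promoters of Saa1 and Saa2 were identical at 94.8% of aligned positions, and those of Saa1 and Saa3 at 52.2%. Both hepcidin promoters held the STAT motif, 97 bases before the start of Hamp and 94 bases before that of Hamp2, and were identical at 89.7% of aligned positions. The BMP response element, 109 bases before the start, was found in Hamp and not in Hamp2. The Orm2 promoter held a C/EBP match 120 bases before its start, and those of Lrg1 and Crp held none of the motifs. The C/EBP motif occurs in 9.56% of 32851 mouse promoter windows of this length, the STAT motif in 7.02%, the BMP response element in 9.59% and the NF-kB motif in 3.9%. A match is a run of letters and shows no binding, and a missing match says nothing of the factor.

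Among the 3 serum amyloid A members, which encode apolipoproteins of high-density lipoprotein, only Saa3 was read in every liver. Saa3 stood at 1.15, 1.51 and 0.907 CPM in WT livers, 1.72 and 1.90 CPM in Tnfr1-/- livers, 31.2, 1.16 and 0.917 CPM in Casp8-/- Mlkl-/- livers, and 62.5, 72.3 and 184 CPM in Casp8-/- Tnfr1-/- livers. The Casp8-/- Tnfr1-/- livers were all above the 8 others, the lowest of them 2.01-fold above Casp8-/- Mlkl-/- replicate 1 and the rest of the livers far below both. Against WT, Saa3 rose by 6.48 on the log2 scale (SE 1.35), an 89.2-fold difference with an adjusted p of 0.0234 by edgeR's quasi-likelihood test, and with 9 livers by 5.84 (SE 0.15, adjusted p = 5.07e-12). In contrast, Saa1 had no read outside a single liver, Casp8-/- Tnfr1-/- replicate 2, with 3 reads. Saa2 had 2, 2 and 1 reads in the Casp8-/- Tnfr1-/- livers and none in the 8 others. Since 3 counts correspond to between 0.082 and 0.171 CPM, neither Saa1 nor Saa2 was detectable above that floor in any liver, and no fold is given. Saa4, the constitutive member of the cluster, was at 37.1 to 54.7 CPM in WT and Tnfr1-/- livers and at 90.5, 83.0 and 42.0 CPM in Casp8-/- Tnfr1-/- livers, with a log2 difference from WT of 0.82 (SE 0.40) that did not pass the test (adjusted p = 0.231).

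The orosomucoids, which carry lipids and drugs in plasma, were close to silent outside Casp8-/- Tnfr1-/- livers. Orm1 had 1, 0 and 0 reads in WT, 3 and 4 in Tnfr1-/-, 33, 0 and 3 in Casp8-/- Mlkl-/-, and 116, 141 and 517 in Casp8-/- Tnfr1-/- livers. In CPM the Casp8-/- Tnfr1-/- livers reached 3.54, 4.85 and 29.4, and all were above the 8 others. Summed over livers and scaled for library size, the 774 reads in Casp8-/- Tnfr1-/- livers were 734 times the single read in WT, with a 95% counting interval of 131 to 29016. This interval leaves out the spread between livers, and 517 of the 774 reads were from replicate 3. The edgeR test gave an adjusted p of 0.0176 for the difference from WT. The fitted log2 value of 9.46 (SE 1.86), or 7.91 (SE 0.65) with 9 livers, depends on the handling of 0 counts. Orm1 passed the filter only through the Casp8-/- Tnfr1-/- livers and Casp8-/- Mlkl-/- replicate 1, the 4 livers above 0.389 CPM, and it is also among the genes the study selected for display from these samples, so its direction is not independent evidence. Orm2 had 2, 0 and 4 reads in Casp8-/- Tnfr1-/- livers and none elsewhere, and Orm3 had a single read in all 11 livers.

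Lrg1, a secreted glycoprotein that modulates TGF-beta signaling in endothelium, differed most among the Casp8-/- Tnfr1-/- livers. It stood at 0.422, 0.922 and 0.473 CPM in WT, 0.465 and 0.683 CPM in Tnfr1-/-, 12.8, 0.465 and 0.229 CPM in Casp8-/- Mlkl-/-, and 16.2, 24.4 and 350 CPM in Casp8-/- Tnfr1-/- livers. Every Casp8-/- Tnfr1-/- liver was above the 8 others, although the lowest of them was only 1.27-fold above Casp8-/- Mlkl-/- replicate 1, and replicate 3 was 17.3-fold above the mean of the other 2. Lrg1 rose by 7.74 against WT on the log2 scale (SE 1.85, adjusted p = 0.0395) with all livers, and by 5.08 (SE 0.28, adjusted p = 8.34e-09) with 9 livers.

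**Figure D1:**
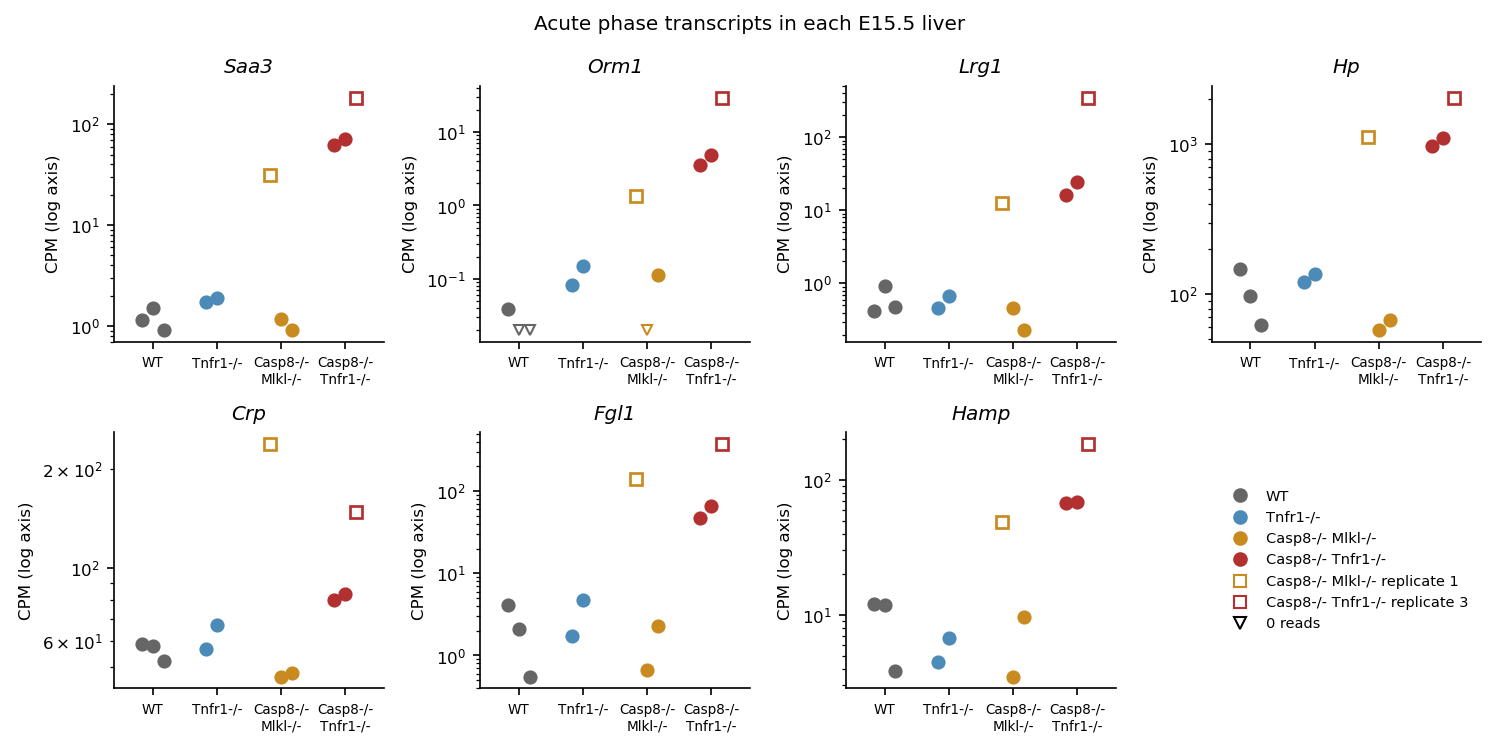
CPM of the 7 members tested (vertical log axes) in each of the 11 E15.5 livers by genotype; each symbol is a liver, open squares are Casp8-/- Mlkl-/- replicate 1 and Casp8-/- Tnfr1-/- replicate 3, and open triangles at the bottom are livers with 0 reads. Saa3 ranges from 0.907 CPM in a WT liver to 184 CPM in Casp8-/- Tnfr1-/- replicate 3, and in every panel Casp8-/- Mlkl-/- replicate 1 lies apart from the 2 other livers of its genotype.

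Haptoglobin was the most abundant member. Per kilobase of transcript, Hp stood at 75.7 ± 31.3 CPM per kb in WT (SD, n = 3), followed by Crp at 33.2 ± 2.13 and Hamp at 22.5 ± 11.3, and the ranges of these 3 did not overlap (lowest Hp 46.1, highest Crp 34.6, lowest Crp 30.7, highest Hamp 29.4). Fgl1 (2.0 ± 1.57), Saa3 (0.456 ± 0.116) and Lrg1 (0.448 ± 0.203) were lower and overlapped each other in range. In Casp8-/- Tnfr1-/- livers the order on the same scale was Hp at 1018 ± 438 CPM per kb, Hamp at 260 ± 163, Fgl1 at 145 ± 163, Lrg1 at 96.3 ± 141, Crp at 61.2 ± 22.6, Saa3 at 40.8 ± 25.9 and Orm1 at 16.3 ± 18.8 (SD, n = 3). Hp remained first in each Casp8-/- Tnfr1-/- liver, since its lowest value there was 719 and no other member exceeded 449, whereas the ranges of neighbours from Hamp to Orm1 overlapped.

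Hp stood at 146, 97.4 and 62.0 CPM in WT, 121 and 136 CPM in Tnfr1-/-, 1119, 57.3 and 66.8 CPM in Casp8-/- Mlkl-/-, and 968, 1094 and 2046 CPM in Casp8-/- Tnfr1-/- livers. Thus the Casp8-/- Tnfr1-/- livers were separate from WT and Tnfr1-/- livers, but Casp8-/- Mlkl-/- replicate 1 fell among them. The log2 difference from WT of 3.75 (SE 1.06) did not pass the test with 11 livers (adjusted p = 0.0691) and did with 9 (3.35, SE 0.23, adjusted p = 6.95e-08).

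Fgl1, a fibrinogen-related hepatocyte protein that also binds LAG3, an inhibitory receptor of T cells, had the largest excess in Casp8-/- Mlkl-/- replicate 1. Its levels were 4.07, 2.09 and 0.552 CPM in WT, 1.72 and 4.71 CPM in Tnfr1-/-, 141, 0.668 and 2.25 CPM in Casp8-/- Mlkl-/-, and 46.9, 66.5 and 373 CPM in Casp8-/- Tnfr1-/- livers. Casp8-/- Mlkl-/- replicate 1 was above 2 of the 3 Casp8-/- Tnfr1-/- livers and 29.9-fold above the highest of the 7 remaining livers. The log2 difference of Fgl1 from WT was 6.17 (SE 1.92, adjusted p = 0.0897) with 11 livers and 4.67 (SE 0.45, adjusted p = 2.87e-06) with 9.

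Crp, which is a minor acute phase protein in mice, had the smallest difference from WT. It stood at 58.6, 58.0 and 52.1 CPM in WT, 56.7 and 67.3 CPM in Tnfr1-/-, 238, 46.7 and 48.1 CPM in Casp8-/- Mlkl-/-, and 79.9, 83.3 and 148 CPM in Casp8-/- Tnfr1-/- livers. The highest of the 11 values belonged to Casp8-/- Mlkl-/- replicate 1, and the Casp8-/- Tnfr1-/- livers were above the other 7. The log2 difference from WT was 0.88 (SE 0.56, adjusted p = 0.345) with all livers and 0.55 (SE 0.08, adjusted p = 0.000127) with 9. Apcs, its pentraxin relative, was likewise highest in that liver, with 309 CPM, and stood at 71.3, 69.2 and 147 CPM in Casp8-/- Tnfr1-/- livers against 37.0 to 61.0 CPM in WT.

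Hamp, the iron hormone, stood at 12.1, 11.8 and 3.86 CPM in WT, 4.48 and 6.76 CPM in Tnfr1-/-, 48.7, 3.48 and 9.66 CPM in Casp8-/- Mlkl-/-, and 67.0, 69.1 and 184 CPM in Casp8-/- Tnfr1-/- livers. All 3 Casp8-/- Tnfr1-/- livers were above the 8 others, by 1.38-fold over Casp8-/- Mlkl-/- replicate 1 at the closest. The log2 difference from WT was 3.53 (SE 0.91), which missed the threshold with 11 livers (adjusted p = 0.0522), and 2.90 (SE 0.35, adjusted p = 2.52e-05) with 9. Hamp2, despite its similar promoter, had a single read in each of 2 livers, WT replicate 2 and Casp8-/- Mlkl-/- replicate 3.

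Against WT livers, edgeR called 3 of the 7 members tested higher in Casp8-/- Tnfr1-/- (Saa3, Orm1 and Lrg1) and none lower, where 5.1% of all genes tested were called higher and 0.702% lower. Orm1 passed the filter through the livers where it was high and so had to differ from WT, and without it the count was 2 of 6. At an unadjusted p under 0.05 it was 6 of 7, Crp being the exception, where 17.4% of all genes were higher. DESeq2 called 6 higher (10.5% of all genes) and limma-voom 2 (4.07%). Against Tnfr1-/- livers, edgeR called none of the 7 (background 2.05% higher and 0.122% lower), although all 7 log2 differences were positive and 6 had an unadjusted p under 0.05 (12.6% of all genes). Adjusted p ranged from 0.0929 for Orm1 to 0.575 for Crp, and DESeq2 called 6 higher (6.55% of all genes) and limma-voom 1 (2.13%). Against Casp8-/- Mlkl-/- livers edgeR again called none (background 1.54% higher and 0.116% lower), with 4 at an unadjusted p under 0.05 (11.1% of all genes), 1 called by DESeq2 (4.64%) and 1 by limma-voom (1.68%). Crp was at a log2 difference of -0.10 (SE 0.56, adjusted p = 0.938). These 3 comparisons share the Casp8-/- Tnfr1-/- livers.

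Without Casp8-/- Tnfr1-/- replicate 3 and Casp8-/- Mlkl-/- replicate 1, all 7 of these members were called higher in each of the 3 comparisons. The background also rose, to 17.8% of 16958 genes against WT, 13.9% against Tnfr1-/- and 12% against Casp8-/- Mlkl-/-, and the spread common to all genes fell from a biological coefficient of variation of 33.3% to 8.27%. Orm1, which passed the filter through livers where it was high, is among the 7. Casp8-/- Mlkl-/- replicate 1, left out here, was the highest liver outside Casp8-/- Tnfr1-/- for each of the 7. The log2 differences from Casp8-/- Mlkl-/- livers then ranged from 0.80 for Crp (SE 0.09, adjusted p = 2.15e-05) to 6.28 for Orm1 (SE 0.62, adjusted p = 5.77e-06), with Saa3 at 6.01, Lrg1 at 5.81, Fgl1 at 5.36, Hp at 4.07 and Hamp at 3.42. Against Tnfr1-/- livers the range was from 0.41 for Crp (SE 0.09, adjusted p = 0.00349) to 5.24 for Saa3 (SE 0.17, adjusted p = 6.26e-11). Leaving out Casp8-/- Mlkl-/- replicate 1 alone gave 7, 6 and 6 members higher against WT, Tnfr1-/- and Casp8-/- Mlkl-/-, where 7.29%, 3.62% and 3.03% of all genes were higher. Leaving out Casp8-/- Tnfr1-/- replicate 3 alone gave 3, 0 and 0, where 7.28%, 4.46% and 2.83% of all genes were. Leaving out WT replicate 1, 2 or 3 from the fit of 11 gave 0 members against WT, where 2.06%, 1.65% and 1.57% of all genes were higher, the cause of which was not tested.

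**Figure D2:**
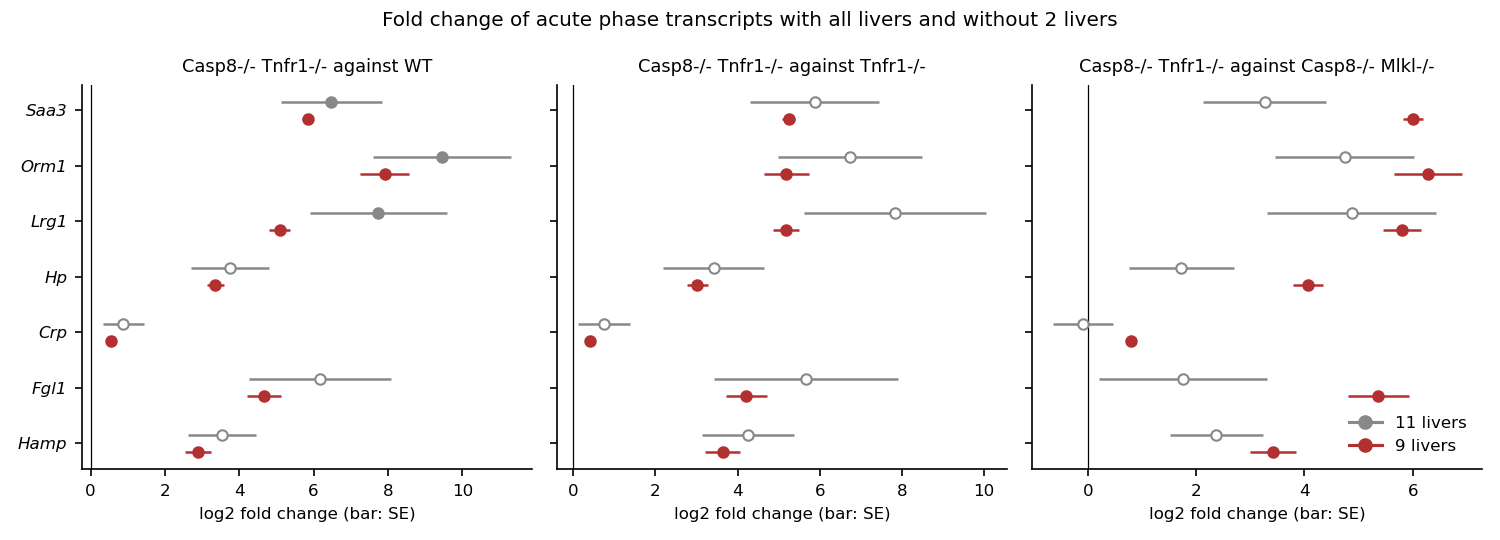
Log2 fold change (horizontal axes, bars SE) of the 7 members tested in Casp8-/- Tnfr1-/- livers against each other genotype, in the fit of 11 livers (grey) and of 9 livers (red); filled symbols have an adjusted p under 0.05. With 9 livers the bars shrink and all 21 symbols are filled, and the values against Casp8-/- Mlkl-/- livers move up, Hp from 1.73 to 4.07; the value of Orm1 against WT rests on a single WT read.

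The same livers were compared gene by gene without a model, Casp8-/- Tnfr1-/- against the 8 other livers, by an exact permutation test (two-sided) on log2 CPM. The smallest p that 3 against 8 livers allow is 0.00606, and Saa3, Orm1, Lrg1 and Hamp reached it. Hp and Fgl1 gave p = 0.0182 and Crp p = 0.236, by the same exact permutation test. All 3 Casp8-/- Tnfr1-/- livers lay above all 8 others for 4 of the 7 members, where 7.43% of all genes tested did so, and for 3 of 6 without Orm1, which passed the filter through these livers and Casp8-/- Mlkl-/- replicate 1. With 9 livers this held for 7 of 7, among them Orm1, whose place there followed from the filter, and for 17.9% of all genes. Each of the 7 then had the smallest p that 36 splits allow, 0.0278 in the exact permutation test. The differences in log2 CPM ran from 0.57 for Crp to 5.64 for Saa3.

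Casp8-/- Mlkl-/- replicate 1 exceeded the highest of the 7 other livers outside Casp8-/- Tnfr1-/- by more than 2-fold in all 7 of the members tested, where 6.21% of all genes did. The excess was 3.53-fold for Crp, 4.04-fold for Hamp, 7.66-fold for Hp, 8.80-fold for Orm1, 13.8-fold for Lrg1, 16.4-fold for Saa3 and 29.9-fold for Fgl1. Hepatocyte genes were also high in this liver, and the members were therefore set against the summed reads of the same 15 hepatocyte genes (among them Alb, Ttr and Apoa1), a scale chosen after the values were seen. Of the 15, 6 are also on the list of negative acute phase genes. With 9 livers 7 of the 15 were lower in Casp8-/- Tnfr1-/- than in WT, where 2297 of 16958 genes were. On this scale, Hp had 4.58 reads per 1000 hepatocyte reads in Casp8-/- Mlkl-/- replicate 1, between 0.942 and 1.82 in the 7 other livers outside Casp8-/- Tnfr1-/-, and 15.55, 17.9 and 18.6 in Casp8-/- Tnfr1-/- livers. Crp had 0.973 reads per 1000 in that liver, close to the 0.662 to 0.858 of the 7 others, and 1.28, 1.37 and 1.34 in Casp8-/- Tnfr1-/- livers. Fgl1 had 0.576 against at most 0.06 in the 7 others and 0.753, 1.09 and 3.38 in Casp8-/- Tnfr1-/- livers.

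On this scale the 3 Casp8-/- Tnfr1-/- livers lay above all 8 others for each of the 7 members tested, where 9.94% of all genes did. Orm1, which passed the filter through livers where it was high, is among the 7. With the 6 negative acute phase genes taken out of the sum, this held for 5 of the 7 and not for Crp and Fgl1, where 10.5% of all genes did. Hp and Crp were nearly alike in the 3 livers on this scale, replicate 3 included. Lrg1 still differed among them, at 0.26, 0.4 and 3.18 reads per 1000. The sum itself was 62239, 61030 and 110080 CPM in the Casp8-/- Tnfr1-/- livers.

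**Figure D3:**
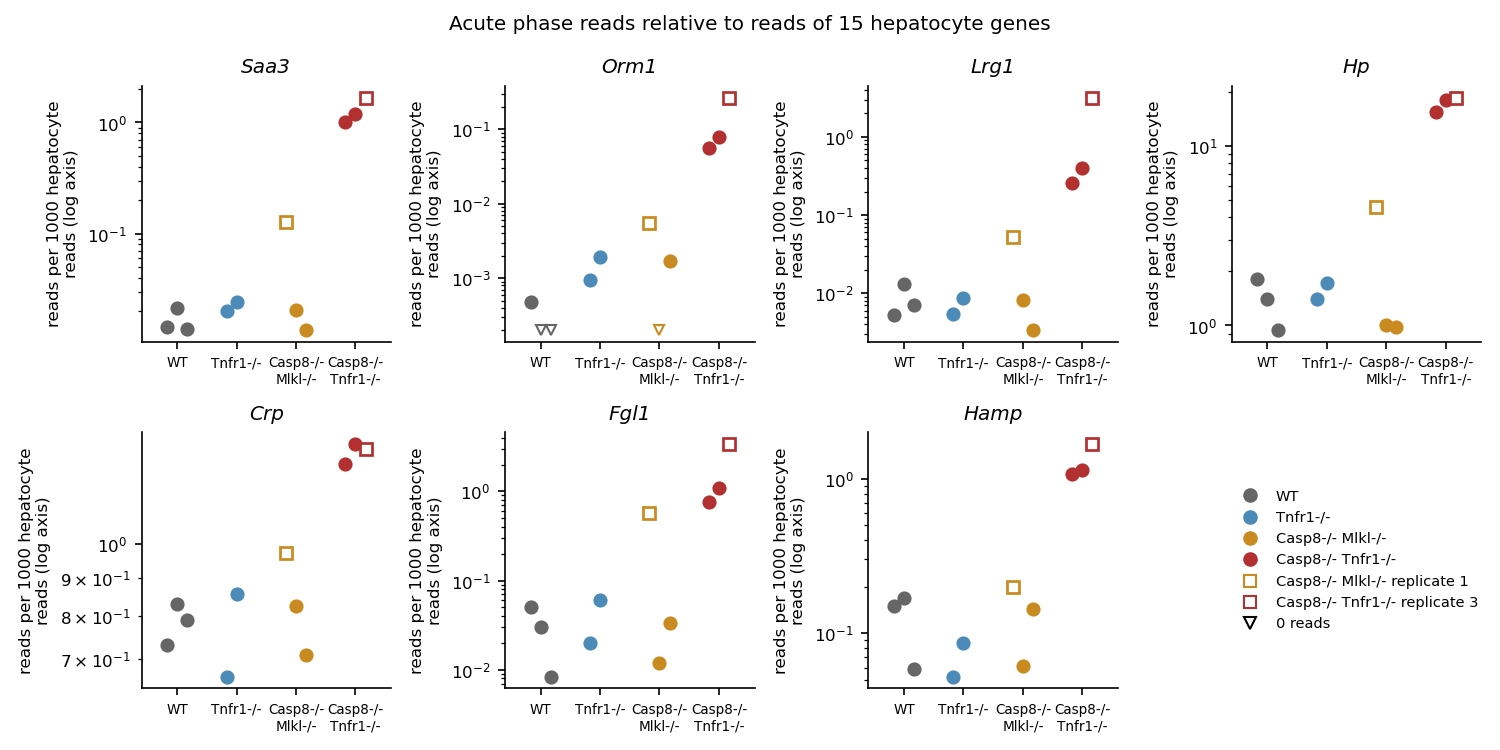
Reads of each of the 7 members tested per 1000 reads of 15 hepatocyte genes (vertical log axes) in each liver; symbols as in the plot of CPM by liver. On this scale the 3 Casp8-/- Tnfr1-/- livers lie above all 8 others in every panel, with Crp at 1.28 to 1.37 against at most 0.973 elsewhere.

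Among the other genotypes no member passed the test with 11 livers. In Casp8-/- Mlkl-/- against WT, edgeR, DESeq2 and limma-voom each called none of 7. Of all genes, edgeR called 0.0058% higher and 0% lower, and DESeq2 called 79 genes higher and 11 lower. At an unadjusted p under 0.05 by edgeR, 3 members were higher (Saa3, Orm1 and Fgl1), where 4.11% of all genes were. Tnfr1-/- against WT gave none by the 3 tools, where edgeR called 0% of all genes in either direction by the adjusted p. No member had an unadjusted p under 0.05 there. The log2 differences ran from -0.72 for Hamp (SE 0.96) to 2.73 for Orm1 (SE 2.65), the latter on 7 reads against 1. Casp8-/- Mlkl-/- against Tnfr1-/- likewise gave none by any of the 3 tools or at an unadjusted p under 0.05. Here edgeR called 0.0058% of all genes higher and 0% lower, and DESeq2 called 39 genes higher and 6 lower. With 9 livers, Hp and Crp were lower in Casp8-/- Mlkl-/- than in Tnfr1-/- livers: they fell by 1.05 (SE 0.25, adjusted p = 0.035) and 0.38 (SE 0.09, adjusted p = 0.0324) on the log2 scale, where 2.31% of genes were called lower.

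The 7 members varied together over the 11 livers. Pearson's r of log2 CPM between pairs of them had a median of 0.948 over 21 pairs, from 0.726 for Orm1 and Crp to 0.982 for Hp and Fgl1. These points share libraries and form clusters of high and low livers. After each genotype's mean was subtracted the median was 0.917, but without the 2 livers that stood apart it was 0.542, with 5 of 21 pairs below 0. The genes outside the list whose log2 CPM most resembled the mean of the 7 were 6430548M08Rik (r = 0.994), Vnn3, Ngp, Itgb2l (0.990) and Ltf (0.990). Ngp and Ltf encode granule proteins of neutrophil precursors, and Ngp stood at 129 to 200 CPM in 7 livers, 781 CPM in Casp8-/- Mlkl-/- replicate 1 and 1009, 1136 and 2749 CPM in Casp8-/- Tnfr1-/- livers.

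The summed level of neutrophil markers moved with the members, but single markers did not all do so. Mpo, Elane and Ms4a3, picked after their values were seen, were lowest of all livers in Casp8-/- Tnfr1-/- replicate 3. They stood there at 53.4, 14.4 and 9.17 CPM, against at least 336, 48.7 and 16.3 CPM in WT. In replicates 1 and 2 of that genotype they were above every WT liver. The summed level of 15 neutrophil genes was 1189 to 1721 CPM in WT and Tnfr1-/- livers, 3621, 1387 and 1529 CPM in Casp8-/- Mlkl-/- livers and 5551, 6860 and 15632 CPM in Casp8-/- Tnfr1-/- livers, and no gene of the list was at 0 in any liver. Of the 15, 8 were higher than in WT, 1 higher than in Tnfr1-/- and none higher than in Casp8-/- Mlkl-/- livers by edgeR with 11 livers (11, 10 and 10 at an unadjusted p under 0.05), and 15, 15 and 14 with 9. Among all genes tested, 5.1%, 2.05% and 1.54% were higher with 11 livers, and 17.8%, 13.9% and 12% with 9. At an unadjusted p under 0.05 with 11 livers, 17.4%, 12.6% and 11.1% were. The summed level of 15 macrophage genes was 763 to 1056 CPM in the 7 other livers, 2358 CPM in Casp8-/- Mlkl-/- replicate 1 and 1138 to 1235 CPM in Casp8-/- Tnfr1-/- livers, but its genes did not move one way. With 11 livers 2 of the 15 were higher (Cd68 and Lyz2, which neutrophils also express) and 2 lower than in WT (Clec4f and Marco), none was called against Tnfr1-/-, and 3 were lower and none higher than in Casp8-/- Mlkl-/-. The median log2 differences were -0.23, -0.31 and -1.10. With 9 livers, 3, 3 and 2 were higher and 7, 7 and 6 lower. Mean CPM of genes picked after their values were seen was 231 in WT and 677 in Casp8-/- Tnfr1-/- livers for Lyz2, 12.1 and 0.608 for Clec4f, a Kupffer cell marker, 61.1 and 21.3 for Marco, and 143 and 48.7 for Cd5l (n = 3 each). Of the defining macrophage markers, Vsig4 was at 0 in replicates 1 and 3 of Casp8-/- Tnfr1-/- and Cd163 in Casp8-/- Mlkl-/- replicate 3. The part of neutrophils and macrophages in the levels of Saa3, Lrg1 and the other members was not tested. None of the 15 hepatocyte genes was called by edgeR in any comparison with 11 livers (1, 0 and 2 lower at an unadjusted p under 0.05 in the 3 comparisons of Casp8-/- Tnfr1-/- livers). With 9, 7 of 15 were lower in Casp8-/- Tnfr1-/- than in WT (median log2 difference -0.18) and 6 of 15 in Casp8-/- Mlkl-/- (-0.39), with none higher, and between these genotypes 1 was higher and 1 lower (0.08). None of 14 erythroid genes tested was called in Casp8-/- Tnfr1-/- livers against any genotype with 11 livers, and with 9 livers 14, 11 and 4 were lower than in WT, Tnfr1-/- and Casp8-/- Mlkl-/- and none was higher. Of all genes, 0.702%, 0.122% and 0.116% were lower in these 3 comparisons with 11 livers. With 9 livers 2297, 1577 and 1035 of 16958 genes were lower, and 539 in Casp8-/- Mlkl-/- against WT.

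**Figure D4:**
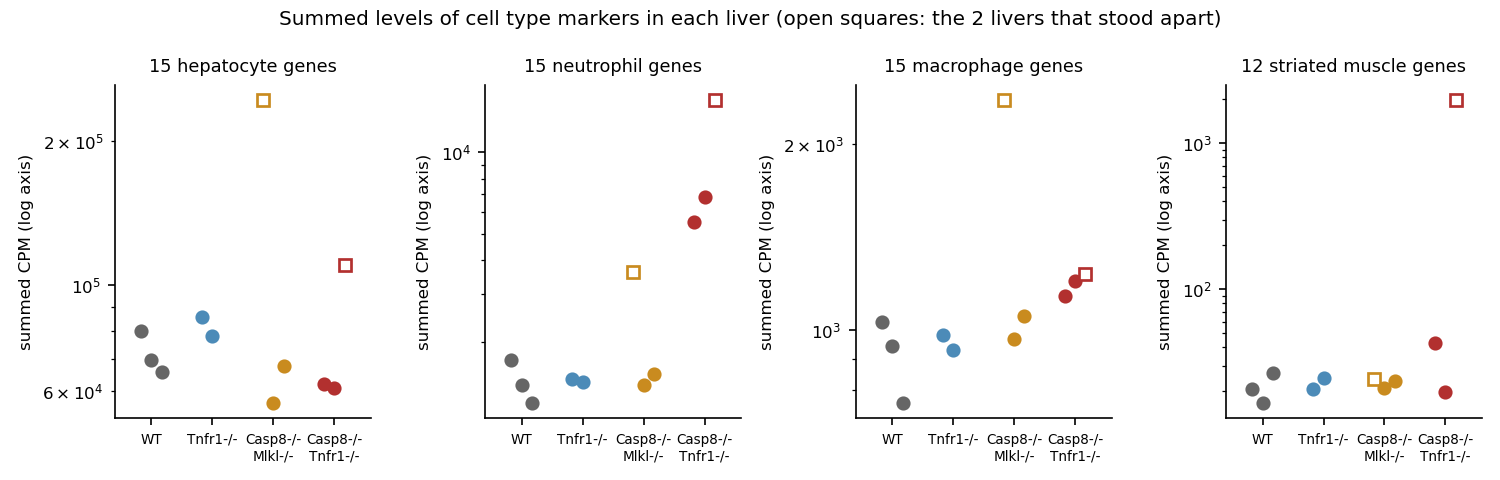
Summed CPM (vertical log axes) of the marker lists of hepatocytes, neutrophils, macrophages and striated muscle in each liver; open squares are Casp8-/- Mlkl-/- replicate 1 and Casp8-/- Tnfr1-/- replicate 3. Hepatocyte genes reach 244443 CPM in the former and muscle genes 1987 CPM in the latter, and neutrophil genes lie at 5551 CPM or more in the Casp8-/- Tnfr1-/- livers and at no more than 3621 CPM elsewhere.

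Beyond the 10 genes, 30 other acute phase genes were tested, including complement factors, fibrinogen chains, ceruloplasmin, metallothioneins and the relatives Saa4 and Apcs. In Casp8-/- Tnfr1-/- livers 7 of 30 were higher than in WT, 5 higher than in Tnfr1-/- and 3 higher than in Casp8-/- Mlkl-/-, and none was lower. The shares of all genes called higher were 5.1%, 2.05% and 1.54%. The median log2 difference from WT was 1.40, beside -0.00153 over all genes tested. Il1rn, the secreted antagonist of the IL-1 receptor, had the smallest p and stood at 13.2 to 21.2 CPM in WT and Tnfr1-/- livers and 114, 92.8 and 94.4 CPM in Casp8-/- Tnfr1-/- livers (log2 difference 2.66, SE 0.30, adjusted p = 0.00111). Steap4, a metalloreductase, reached 170, 158 and 109 CPM in Casp8-/- Tnfr1-/- livers against 13.8 ± 2.11 CPM in WT (SD, n = 3). Lcn2, which binds bacterial siderophores, reached 1099.6, 1216 and 3247 CPM against 49.0 to 78.1 CPM in WT. Which cells the transcripts of this list came from was not tested. With 9 livers, 28 genes of this list passed the filter. Of them, 23, 19 and 25 were higher in the 3 comparisons, where 17.8%, 13.9% and 12% of all genes were, and none was lower.

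Negative acute phase genes, whose products usually fall in the response, did not pass the test with 11 livers. By edgeR, none of 12 was called in the 3 comparisons (1, 0 and 3 lower at an unadjusted p under 0.05), the median log2 difference from WT being -0.07. Rbp4, the retinol carrier, had the smallest p, at 695, 724 and 647 CPM in Casp8-/- Tnfr1-/- livers against 939 to 1030.3 CPM in WT (log2 difference -0.50, SE 0.21, adjusted p = 0.187). With 9 livers 4 of 12 were lower and 1 higher than in WT, where 2297 of 16958 genes were lower and 3017 higher. Rbp4 was at -0.44 (adjusted p = 0.000383) in that fit.

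Of 24 genes for the cytokines, receptors and transcription factors that drive these proteins, 8 were higher than in WT, 4 higher than in Tnfr1-/- and none higher than in Casp8-/- Mlkl-/- livers, and none was lower by edgeR. At an unadjusted p under 0.05, 15, 13 and 11 were higher and 0, 0 and 1 lower. Of all genes tested, 5.1%, 2.05% and 1.54% were higher by the adjusted p, and 17.4%, 12.6% and 11.1% by the unadjusted p. Il1b, the ligand that signals through IL-1 receptors, rose by 4.25 on the log2 scale against WT (SE 0.65, adjusted p = 0.00586), from 0.126 to 0.197 CPM to 2.87, 2.30 and 4.21 CPM, and stood at 2.75 CPM in Casp8-/- Mlkl-/- replicate 1. Its receptor Il1r1 rose by 1.504 (SE 0.24, adjusted p = 0.00729) and Nfkb1, a subunit of NF-kB, by 0.67 (SE 0.11, adjusted p = 0.00687). Il6 was named here after its values were seen because it is the principal inducer of the response. It stood at 0.640, 0.619 and 1.42 CPM in Casp8-/- Tnfr1-/- livers (21, 18 and 25 reads) and at most 0.422 CPM in the 8 others. At these low counts Il6 was not called (log2 difference 2.23, SE 0.83, adjusted p = 0.139). Osmr, which encodes a receptor chain for the IL-6 family cytokine oncostatin M and was also chosen after its values were seen, stood at 9.48, 8.05 and 45.5 CPM in Casp8-/- Tnfr1-/- livers against 1.14 to 1.57 CPM in WT (adjusted p = 0.0157). With 9 livers 15, 12 and 13 of 24 were higher and 1, 2 and 1 lower. In that fit 17.8%, 13.9% and 12% of all genes were higher, and 2297, 1577 and 1035 of 16958 genes lower.

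Of 10 genes that STAT3 induces or that feed back on it, 4 were higher than in WT and 1 higher than in Tnfr1-/- and than in Casp8-/- Mlkl-/- livers. The shares of all genes called higher were 5.1%, 2.05% and 1.54%. Bcl3, an NF-kB cofactor, stood at 26.2, 27.1 and 59.9 CPM in Casp8-/- Tnfr1-/- livers against 5.09 to 7.06 CPM in WT (log2 difference 2.61, SE 0.34, adjusted p = 0.00242). Il4ra, a cytokine receptor chain, rose by 2.37 (SE 0.51, adjusted p = 0.0256). Socs3, which blocks IL-6 receptor signaling, rose by 1.82 (SE 0.39, adjusted p = 0.0266), with 41.8, 46.7 and 137 CPM against 19.8 to 22.5 CPM in WT, and was at 26.3 CPM in Casp8-/- Mlkl-/- replicate 1. With 9 livers, 6 of 10 were higher in each of the 3 comparisons, where 17.8%, 13.9% and 12% of all genes were.

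Of 22 genes that control hepcidin through BMP and iron, 1 was higher than in WT, a share near the 5.1% of all genes, and none was called against the other genotypes by edgeR. At an unadjusted p under 0.05, 7, 7 and 4 were higher and 1, 1 and 2 lower than in WT, Tnfr1-/- and Casp8-/- Mlkl-/- livers. Of all genes, 17.4%, 12.6% and 11.1% were higher by that p. The gene called was Inhbb, which encodes the subunit of activin B, at 2.13, 2.34 and 14.6 CPM in Casp8-/- Tnfr1-/- livers against 0.384 to 0.754 CPM in WT (log2 difference 3.62, SE 0.80, adjusted p = 0.0299). The BMP receptors Bmpr2 (0.70, SE 0.20, adjusted p = 0.073) and Bmpr1a (0.50, SE 0.16, adjusted p = 0.0951) came next and did not pass. Id1, a BMP target named after its values were seen, was at 14.4, 19.0 and 18.1 CPM in Casp8-/- Tnfr1-/- livers and 13.7 to 17.7 CPM in WT (log2 difference 0.10, SE 0.17, adjusted p = 0.723). With 9 livers, 6 of 22 were higher and 3 lower than in WT, where 17.8% of all genes were higher and 2297 of 16958 lower.

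Of 13 receptors and binding partners of the members, 5 were higher than in WT, 1 higher than in Tnfr1-/- and none higher than in Casp8-/- Mlkl-/- livers by edgeR, with 7, 6 and 4 higher and 1, 1 and 1 lower at an unadjusted p under 0.05. Of all genes tested, 5.1%, 2.05% and 1.54% were higher by the adjusted p, and 17.4%, 12.6% and 11.1% by the unadjusted p. Tlr4, a receptor reported for SAA3, rose by 1.10 on the log2 scale (SE 0.18, adjusted p = 0.00839). Fpr2, the formyl peptide receptor that binds serum amyloid A, rose by 3.31 (SE 0.68, adjusted p = 0.0209), from 1.97 to 4.02 CPM in WT to 17.7, 19.1 and 46.2 CPM. Fcgr2b, an inhibitory Fc receptor that binds C-reactive protein, rose by 2.13 (SE 0.44, adjusted p = 0.0214). With 9 livers, 8 of 13 were higher and 2 lower than in WT, where 3017 of 16958 genes were higher and 2297 lower. Among relatives of the members, Fgl2 was called higher than in WT at the edge of the threshold (log2 difference 0.94, SE 0.24, adjusted p = 0.04996) and Saa4 and Apcs were not, whereas all 3 were called with 9 livers.

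**Figure D5:**
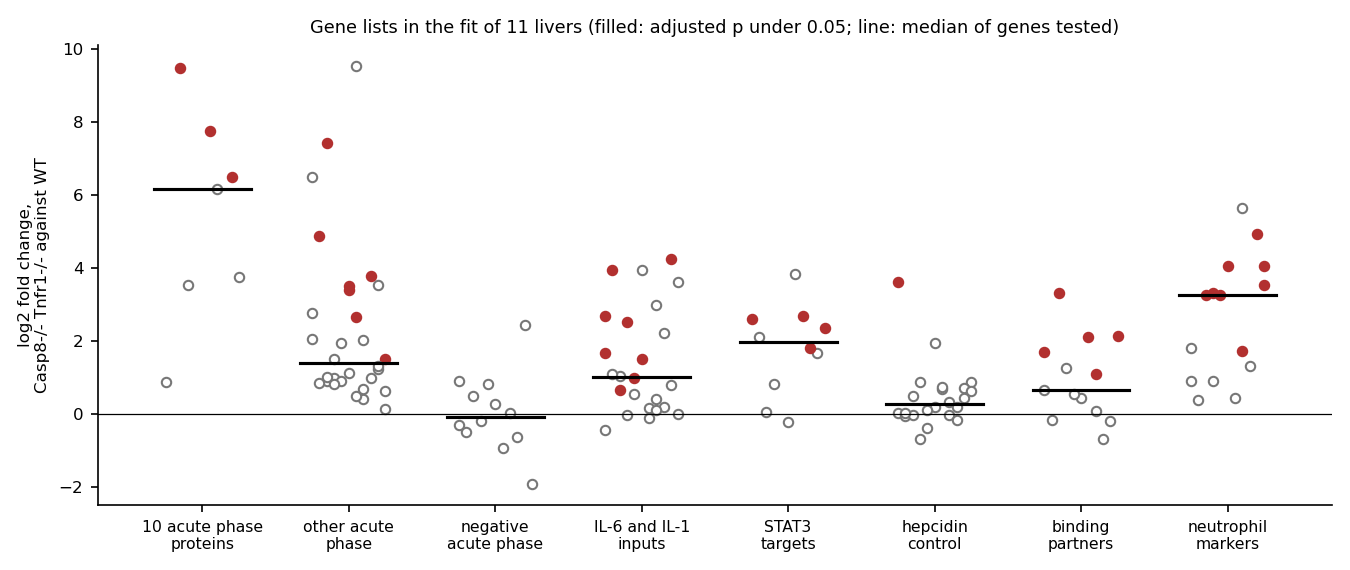
Log2 fold change in Casp8-/- Tnfr1-/- against WT livers (vertical axis) of the tested genes of each list in the fit of 11 livers; a point is a gene, filled where the adjusted p was under 0.05, and a line is the median. The median is 1.40 for other acute phase genes, -0.07 for negative acute phase genes and 0.27 for hepcidin control.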

How the data were processed

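Bulk RNA-seq tables of 11 fetal livers were analysed, each listing 52636 genes with a count, a gene length and an RPKM value. The authors aligned reads with GSNAP (per the submitters' processing notes) to GRCm38 and deposited raw counts of uniquely mapped reads on exons. The RPKM values deposited by the authors are those counts scaled by gene length and library size, and were not used. The labels name a TruSeq RNA v2 kit and single-end 50 bp reads on a HiSeq4000, the paper a stranded kit and another sequencer; whether strand was used in counting is not given in the sources used here.

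Genes were named through GENCODE M21 (52403 matched), 29478 had at least 1 count, and filterByExpr (minimum count 10) kept 17243. Counts were normalised by TMM and tested by edgeR's quasi-likelihood test (4.0.16, R 4.3.3) in 1 fit of the 4 genotypes, with Benjamini-Hochberg adjustment over all genes tested and a threshold of 0.05. Every adjusted p in the text is from edgeR unless another tool is named. DESeq2 (1.42.0), limma-voom (3.58.1), no filter, other size factors, fits of 2 genotypes, a replicate block and fits without single livers or without 2 livers were alternatives. CPM used TMM-scaled library sizes, and log2 CPM a prior count of 2. Exact permutation tests used scipy 1.17.1. A count of 3 corresponded to 0.082 to 0.171 CPM; intervals and this floor cover counting error only. The edgeR fit was tested on simulated counts.

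The members and gene lists were chosen with earlier results of these data known. Named genes are all 10 members, up to 3 genes per other list with the smallest p in Casp8-/- Tnfr1-/- against WT, and the 5 genes most like the members' mean log2 CPM. No 2 livers held the same library (chi-square per degree of freedom at least 6.45). Nothing in the labels states litters or batches, so p-values measure the spread between these livers. Promoters and motifs were read from RefSeq GRCm38.p6 with Python 3.11.15 and Biopython 1.88.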

Additional observations from a re-analysis of the deposited data

How the results depend on the processing

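The number of members called higher in Casp8-/- Tnfr1-/- livers depended on the test and on single livers. Against WT, Tnfr1-/- and Casp8-/- Mlkl-/- livers it was 3, 0 and 0 in the fit of 11 livers, 6, 6 and 1 by DESeq2, 6, 4 and 1 without a filter, 2, 1 and 1 by limma-voom, and 7, 7 and 7 without the 2 livers that stood apart; other size factors gave 3 against WT and fits of 2 genotypes 4. Leaving out single livers gave 0 to 7, 0 to 6 and 0 to 6; against WT it was 0 without any one WT liver, 7 without Casp8-/- Mlkl-/- replicate 1 and 5 without its replicate 2. Same-numbered livers showed no common deviation (5 of 15 pairs with r over 0.1, from -0.30 to 0.27). This check cannot exclude pairing by number, since the 2 Tnfr1-/- livers deviate by equal and opposite amounts. With the replicate block, 1 member was called against WT, the Crp difference from Casp8-/- Mlkl-/- was 0.13 and the Lrg1 difference of Tnfr1-/- from WT 0.21. By limma-voom, Crp differed from Casp8-/- Mlkl-/- by 0.29, and Orm1 in Casp8-/- Mlkl-/- from Tnfr1-/- by -0.054. The cause of these shifts was not tested. Each count of 7 includes Orm1, which passed the filter through livers where it was high.

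Differences that turned sign were mostly those of Casp8-/- Mlkl-/- livers. Without the 2 livers, log2 differences of Casp8-/- Mlkl-/- from WT were Saa3 -0.17, Hp -0.71, Lrg1 -0.72, Crp -0.24, Fgl1 -0.70 and Hamp -0.52. Those from Tnfr1-/- were Saa3 -0.77, Orm1 -1.10, Hp -1.05, Lrg1 -0.63, Crp -0.38 and Fgl1 -1.15, with 2 members called lower, and Crp in Casp8-/- Tnfr1-/- differed from Casp8-/- Mlkl-/- by 0.80. Leaving out single livers, those from WT ranged for Saa3 from -0.18 to 3.75, Hp -0.71 to 2.53, Lrg1 -0.74 to 3.43, Crp -0.24 to 1.34, Fgl1 -0.65 to 5.17 and Hamp -0.49 to 1.65. Those from Tnfr1-/- ranged for Saa3 from -0.79 to 3.14, Orm1 -1.09 to 2.61, Hp -1.05 to 2.20, Lrg1 -0.66 to 3.51, Crp -0.39 to 1.19 and Fgl1 -1.16 to 4.78. Crp between the Casp8-/- genotypes ranged from -0.45 to 1.13, and in Tnfr1-/- against WT Lrg1 ranged from -0.37 to 0.34 and Fgl1 from -0.38 to 1.28. No difference of a tested member between Casp8-/- Tnfr1-/- livers and WT or Tnfr1-/- livers changed sign.

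Without the 2 livers, Crp in Casp8-/- Tnfr1-/- against the other livers differed by 0.57 in log2 CPM (exact permutation p = 0.0278). Members with every Casp8-/- Tnfr1-/- liver above all others numbered 4 by CPM, 7 per hepatocyte read, 5 without the negative acute phase genes in that sum and 7 without the 2 livers. These alternatives were chosen after seeing the data. Orm1, which passed the filter through livers where it was high, is in each of these counts. Saa1, Saa2 and Orm2 had at most 4 reads in a liver and were not tested.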
